A study of Mus musculus with 8 samples.

Results

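Interferon-stimulated genes were followed in fibroadipogenic progenitors, which are mesenchymal cells between the fibres of muscle and a source of its fat and scar tissue. The 36 genes were taken by symbol from a count table of 24419 gene symbols, in which all 36 were found. All 36 also passed the filter on low counts that left 13646 genes for testing. Sorting of hindlimb muscle took living cells with SCA-1 and left out those with CD31, α7-integrin or CD45. The mice were male C57BL/6J, and 8 libraries in 3 groups were sequenced. In the knockdown group (n = 3) the mice carried orthotopic pancreatic tumours from a mouse line, KPCY, whose cells were stably transduced with a lentiviral inhibitor of miR-27a-3p. In the scrambled group (n = 3) the implanted KPCY cells carried a scrambled sequence in the same kind of vector, and both lines had been selected with puromycin. The sham group (n = 2) underwent sham surgery without tumour cells. The inhibitor was in the implanted cells and not in the sorted progenitors, each tumour group rests on 1 stable cell line, and the labels give neither ages nor collection times. The labels call the libraries biological replicates. Below, knockdown, scrambled and sham name these groups, and a list of values follows the replicate numbers of the labels. Levels are CPM, read counts scaled to a common depth by library size and TMM factor, and differences are log2 fold differences ± standard errors from edgeR's quasi-likelihood fit, with p-values adjusted over all 13646 genes.

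Interferons are secreted proteins that cells make when sensors detect foreign or misplaced nucleic acid. Type I interferon binds a receptor of the subunits IFNAR1 and IFNAR2, whose kinases JAK1 and TYK2 activate transcription factors, among them STAT2. STAT2 acts with IRF9 at interferon-stimulated response elements in promoters. Type II interferon acts at gamma-activated sites and is the stronger inducer of the guanylate-binding proteins and of IRF1. Many of the induced proteins block viruses at single steps, and others are the sensors and transcription factors themselves, so that the programme feeds back on its own input. A low level of many of these transcripts is usual in tissue that is not infected. In C57BL/6 mice the Mx genes carry inactivating mutations.

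Promoter sequence was available for 26 of the 36 genes in RefSeq (GRCm38.p6), from 250 bases before to 50 bases after the annotated start. The windows were searched for the core of the interferon-stimulated response element, GAAANNGAAA or TTTCNNTTTC on the other strand. It was found for 14 of the 26 genes (53.8%), against 3.99% of 27025 genes with such windows. The core of the gamma-activated site, TTCNNNGAA, which reads the same on both strands, was found for 8 of the 26 (30.8%), against 9.55% of all genes. The 2 motifs can overlap, and a match is a description of letters, not of binding. Stretches of 60 bases with the response element core in capitals are shown because they let genes with a larger and a smaller difference be set side by side. The first 4 belong to genes with a log2 difference of 0.70 or more between knockdown and scrambled libraries, and the last 3 to genes with a difference of 0.21 or less.
Ifit1, chr19:34640765-34640824, + strand: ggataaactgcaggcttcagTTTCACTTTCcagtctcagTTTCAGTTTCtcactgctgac
Isg15, chr4:156200857-156200916, - strand: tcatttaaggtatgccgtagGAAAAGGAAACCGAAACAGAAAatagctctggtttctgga
Gbp2, chr3:142620584-142620643, + strand: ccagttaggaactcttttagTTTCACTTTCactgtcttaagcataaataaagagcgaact
Gbp3, chr3:142559979-142560038, + strand: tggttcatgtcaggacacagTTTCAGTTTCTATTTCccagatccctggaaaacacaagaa
Stat2, chr10:128270256-128270315, + strand: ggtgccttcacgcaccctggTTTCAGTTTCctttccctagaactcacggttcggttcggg
Rsad2, chr12:26456533-26456592, - strand: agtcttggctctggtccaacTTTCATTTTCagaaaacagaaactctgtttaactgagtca
Gbp7, chr3:142530263-142530322, + strand: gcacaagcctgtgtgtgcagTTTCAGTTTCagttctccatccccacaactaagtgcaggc
The core was thus present in genes with larger and with smaller fitted differences in these libraries. The genes Mx1, Mx2, Oas2, Usp18, Ifi27, Dhx58, Rtp4, Zbp1, Parp9 and Parp14 had no window.

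Libraries of the scrambled group were uneven, which bears on each comparison that uses them. Of the variance in log2 CPM, 61.1% lay on the first principal component. On it the knockdown libraries lay between -39.5 and -32.3, scrambled libraries 1, 2 and 3 at 115.5, -12.3 and 92, and the sham libraries at -47.7 and -42.1. Each library held between 15647436 and 28340450 counts. The 6 progenitor markers summed to 18630 to 21880 CPM in knockdown and 23900 to 27990 CPM in scrambled libraries. In sham libraries the sum ran from 16730 to 20430 CPM. For scrambled over sham, 3 of the 6 had a log2 difference above 0 and 3 below. Pdgfra, a defining marker of these progenitors, ranged from 1256 to 1588 CPM over the 8 libraries, but other markers were less even. Cd34 stood at 1914, 1925 and 1805 CPM in knockdown, 213, 1179 and 241 CPM in scrambled and 2250.3 and 2156 CPM in sham libraries. Ly6a, which encodes SCA-1 and is itself induced by interferon, stood at 1110.1, 1175 and 1033 CPM in knockdown, 451, 1136 and 436 CPM in scrambled and 951 and 933 CPM in sham libraries. Both were lowest in scrambled libraries 1 and 3. In bulk samples, fewer cells of a type and less RNA per cell cannot be told apart. The 9 macrophage markers summed to between 12.3 and 45.1 CPM in knockdown, 20.6 and 38.1 in scrambled and 14.7 and 18.5 in sham libraries. Of these, Adgre1, which encodes F4/80, stood at 1.28, 0.502 and 0.612 CPM in knockdown and 0.274, 0.296 and 0.441 CPM in scrambled libraries. In sham libraries it stood at 0.0633 and 0.112 CPM, under the 0.19 and 0.167 CPM that 3 reads would give there. Its groups did not overlap. Of the 8 macrophage markers tested, every knockdown library lay above every scrambled library for 1 and below for 1 (12.5% each). The shares of all genes were 17.5% and 16.7%. The 9 lymphocyte markers summed to at most 0.70 CPM in any library. Siglech, which marks plasmacytoid dendritic cells, the main makers of type I interferon, was at most 0.47 CPM and at 0 reads in 5 of 8 libraries. The list of 5 markers of these cells summed to between 245.3 and 257.1 CPM in knockdown, 158.7 and 220.1 in scrambled and 219.9 and 268.5 in sham libraries, nearly all of it Tcf4. Of the others Ccr9 reached 1.44 CPM, in scrambled library 2, and Cox6a2 0.76 CPM, in scrambled library 3. The 6 muscle fibre markers summed to between 37.6 and 47.0, 55.2 and 194.2, and 24.9 and 48.9 CPM in the same order of groups. The sum of the 7 endothelial markers ran from 480.9 to 566.2, from 383.9 to 451.9 and from 495.7 to 507.8 CPM, most of it Tek, while Pecam1 was highest in scrambled library 1. Although this sum was lower in scrambled than in sham libraries, 6 of the 7 markers had a difference above 0 and 1 below. At an unadjusted p under 0.05, 3 were higher (42.9%), against 16.7% of all genes, and 1 lower (14.3%), against 12.5%. The sort-gate negatives Pecam1, Ptprc and Itga7 summed to between 41.5 and 57.4 CPM in knockdown, 46.4 and 79.5 in scrambled and 24.3 and 33.0 in sham libraries. The 5 pericyte markers summed to between 149.8 and 180.5, 78.6 and 178.8, and 128.2 and 161.4 CPM in the same order. For scrambled over sham 4 of them were higher at an unadjusted p under 0.05, against 16.7% of all genes. Cspg4 was lower, against 12.5% of all genes. The 5 tumour epithelium markers summed to between 3.59 and 5.02, 1.07 and 15.9, and 2.66 and 2.79 CPM. The part of these markers in the values below was not tested.

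Levels differed widely between the genes. Per kilobase of exon, and as a mean over the 8 libraries, Ifi27 was the highest at 70.7 CPM per kb. Irf1, a transcription factor that responds to type II interferon and to inflammatory signals, stood at 51.2, and Bst2, the tetherin that holds budding virus at the cell surface, at 32.8 CPM per kb. Gbp2, a guanylate-binding protein, stood at 27.1, Ifi35 at 18.04, Samhd1 at 17.8, Ifit2 at 15.1 and Stat2 at 12.3 CPM per kb. At the low end were Oas2, Oas1a, Oasl1, Mx1 and Ifi44, at 0.952, 0.942, 0.585, 0.312 and 0.0878 CPM per kb. The same 36 genes summed to 1281, 1585 and 1299.9 CPM in the knockdown libraries, 915, 1259 and 1029.8 in the scrambled libraries and 1188 and 1299.9 in the sham libraries.

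**Figure D1:**
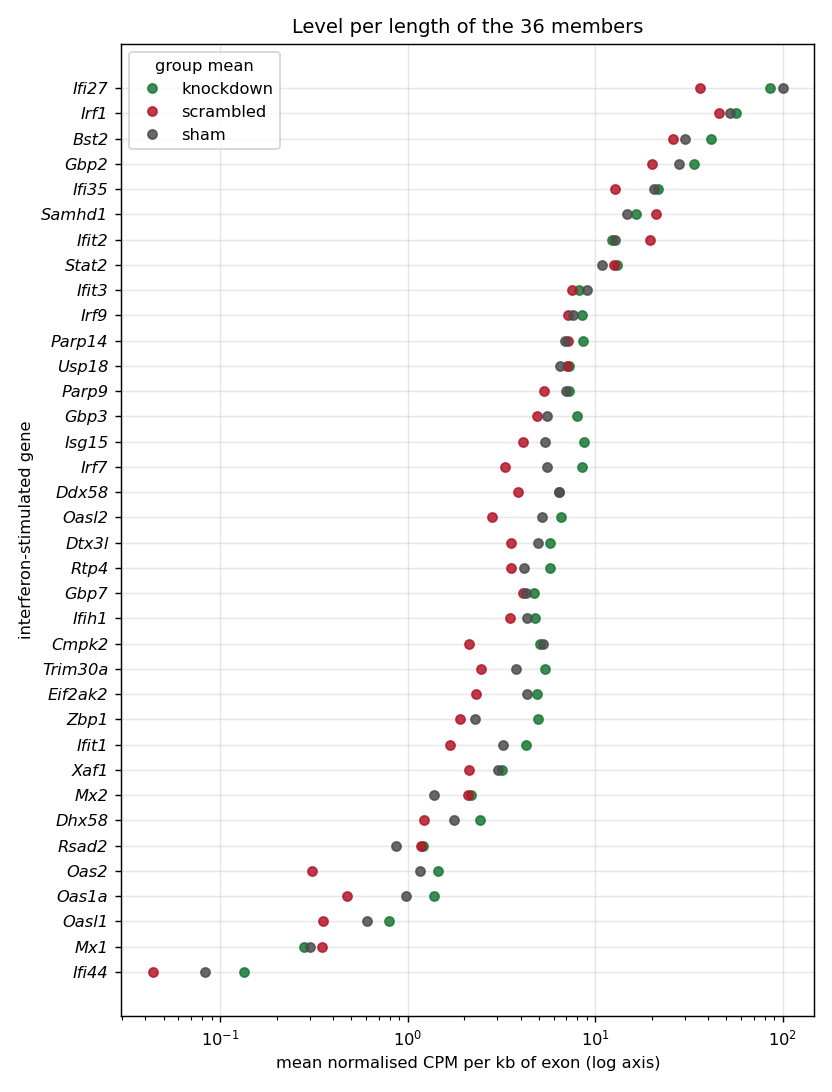
Mean normalised CPM per kb of exon (horizontal log axis) for each of the 36 interferon-stimulated genes, with 1 point for each group mean (knockdown n = 3, scrambled n = 3, sham n = 2). Ifi27, Irf1 and Bst2 stand at the top and Ifi44 at the bottom, and for Ifi27, Oas2 and Oasl2 the scrambled mean lies apart to the left.

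By library, the pattern was led by scrambled library 1 and knockdown library 2. The mean over the 36 genes, as log2 CPM minus the sham mean of each gene, was 0.17, 0.50 and 0.16 in knockdown libraries 1, 2 and 3. It was -1.21, -0.09 and -0.58 in scrambled libraries 1, 2 and 3, so scrambled library 2 lay close to the sham libraries and the other two below them. Of the 36 genes, 21, 30 and 18 stood above both sham libraries in knockdown libraries 1, 2 and 3, and 3 stood below both in each. In scrambled libraries 1, 2 and 3, 5, 11 and 9 stood above both sham libraries, and 30, 15 and 24 below both. Shares of all genes above or below both sham libraries were not counted. These numbers alone therefore show nothing particular to the 36 genes. Scrambled library 1 held the lowest of the 8 values for 25 of the 36 genes (69.4%), against 28.5% of all genes tested. For Ifi44 it shared that place with scrambled library 3, both with 0 reads. Knockdown library 2 held the highest value for 26 genes (72.2%), against 13.4% of all genes tested. The heatmap by library shows both.

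**Figure D2:**
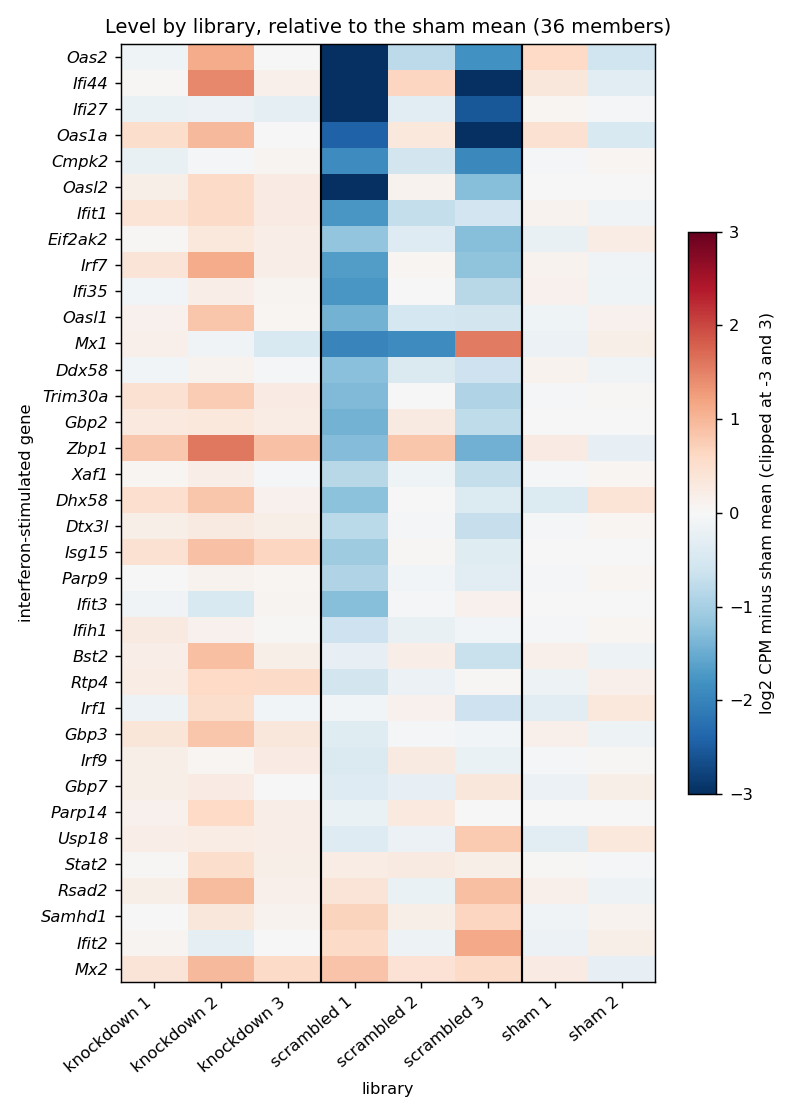
Log2 CPM of each of the 36 genes (rows, ordered by the mean of the scrambled libraries) in the 8 libraries (columns), minus the mean of that gene in the sham libraries, with red above and blue below. The columns of scrambled libraries 1 and 3 are blue for most genes, the column of scrambled library 2 is close to sham, and knockdown library 2 is the reddest column.

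Knockdown and scrambled libraries differ in design by the inhibition of miR-27a-3p in the implanted tumour line. Most interferon-stimulated genes stood higher in the knockdown libraries, by a median log2 difference of 0.70, against 0.014 over all genes. The fitted difference was above 0 for 33 of the 36 genes (91.7%), against 50.8% of all genes, and below 0 for Ifit2, Samhd1 and Mx1. No gene of the 36 passed edgeR's test over all genes. The share of all genes called in this comparison was 0.00733% higher and 0.0440% lower. Taken at an unadjusted p under 0.05, 17 of the 36 were higher (47.2%), against 13.9% of all genes, and 1, Ifit2, was lower (2.78%), against 18.5%. The number higher was 8 without knockdown library 2 (22.2%), against 7.52% of all genes, and 11 without scrambled library 1 (30.6%), against 7.97%. Every knockdown library lay above every scrambled library for 18 of the 36 (50.0%), against 17.5% of all genes, and below for 0, against 16.7%. With DESeq2 9 of the 36 were called higher (25.0%), against 4.33% of all genes, and 0 lower, against 8.25%. They were Cmpk2, Ddx58, Dtx3l, Eif2ak2, Gbp3, Ifit1, Irf7, Isg15 and Trim30a. Shares of all genes with DESeq2, here and below, are of 17529 genes, without the filter on low counts that all 36 passed. The call depended on scrambled library 2. Without it 26 were called higher (72.2%), against 27.3% of all genes, and Ifit2 and Samhd1 lower, against 26.6%, and the median was 0.91. Without both scrambled libraries 1 and 3, which leaves 1 scrambled library assumed to vary like the others, the median was 0.28, 30 of 36 differences were above 0 and 0 of the 36 genes were called, against 0.719% of all genes.

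Scrambled and sham libraries differ in design by the presence of a tumour. Here the median log2 difference of the 36 genes was -0.40, against 0.0018 over all genes, and 29 of 36 (80.6%) were below 0, against 49.9% of all genes. Again 0 of the 36 genes passed edgeR's test over all genes, where 1.10% of all genes were called higher and 0.476% lower. Before adjustment, 4 had a p under 0.05 and were lower (11.1%), against 12.5% of all genes, namely Cmpk2, Eif2ak2, Ddx58 and Ifit1. The 1 that was higher was Samhd1 (2.78%), against 16.7%. Every scrambled library lay below both sham libraries for 10 genes (27.8%), against 21.0% of all genes, and above for 3 (8.33%), Mx2, Stat2 and Samhd1, against 20.1%. DESeq2 called Cmpk2 lower (2.78%), against 4.07% of all genes, and 0 genes higher, against 7.18%. Without scrambled library 2, 16 genes were called lower (44.4%), against 25.6% of all genes, and Ifit2 and Samhd1 higher (5.56%), against 25.4%, with a median of -0.74. Without scrambled library 1 the median was -0.17 and 24 of 36 were below 0. Without both scrambled libraries 1 and 3 it was -0.059, with 21 of 36 below 0.

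Between knockdown and sham libraries the differences were smaller. The median was 0.27, against -0.0010 over all genes, and 30 of 36 (83.3%) were above 0, against 49.8% of all genes. By edgeR 0 of the 36 genes were called, where 0.00733% of all genes were called higher and 0% lower. Before adjustment, a p under 0.05 was also found for 0 of 36 in either direction, against 1.67% and 0.696% of all genes. That count depended on which scrambled libraries were in the fit, which shares 1 estimate of the spread over all groups. Fitted on knockdown and sham libraries alone, 10 of 36 were higher at an unadjusted p under 0.05 (27.8%), against 5.55% of all genes. Without both scrambled libraries 1 and 3 it was 10 (27.8%), against 5.25%, and without scrambled library 2 it was 6 (16.7%), against 3.70%. DESeq2 called 0 of the 35 genes for which it gave an adjusted p, against 0.148% of all genes. Every knockdown library lay above both sham libraries for 15 genes (41.7%), against 13.7% of all genes, and below both for 1, Ifi27, against 13.6%. Without knockdown library 2 the median was 0.15, with 28 of 36 above 0. The 3 comparisons share libraries, so their differences for a gene are not independent of each other.

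**Figure D3:**
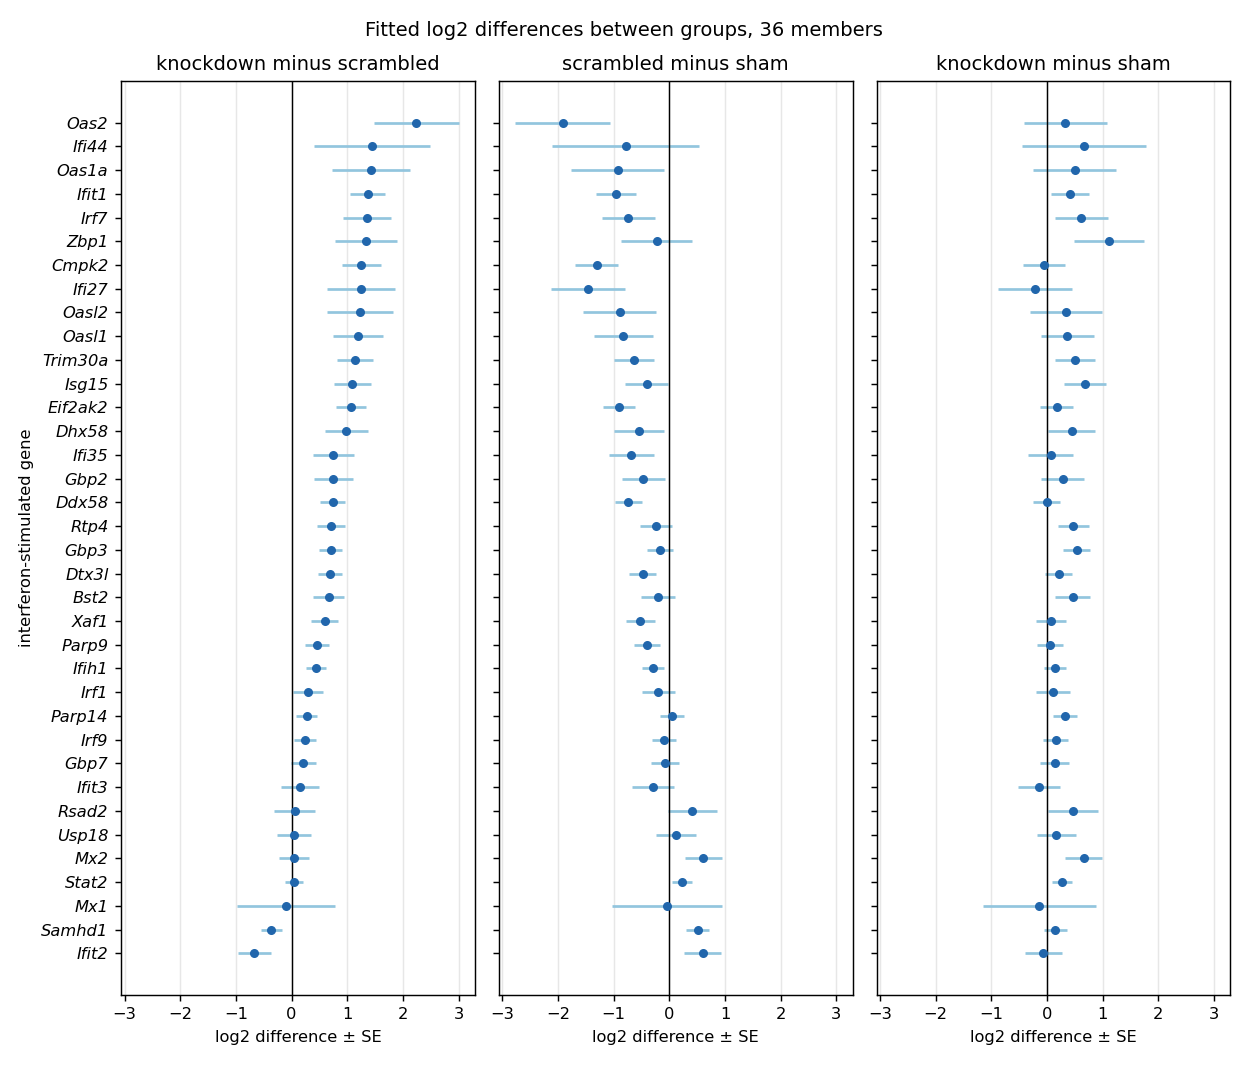
Fitted log2 differences (points) with standard errors (bars) for the 36 genes (rows) in the 3 comparisons, knockdown minus scrambled, scrambled minus sham and knockdown minus sham. In the left panel 33 points lie right of 0, in the middle panel 29 lie left of 0, and in the right panel 30 lie right of 0 and closer to it.

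Among the sensors, 5 of 5 differences were above 0 between knockdown and scrambled libraries and 5 of 5 below 0 between scrambled and sham libraries. Eif2ak2 encodes PKR, the kinase that halts translation on binding double-stranded RNA. It stood at 22.6, 27.5 and 25.2 CPM in the knockdown libraries, 9.72, 16.8 and 9.07 CPM in the scrambled libraries and 18.7 and 25.8 CPM in the sham libraries. No scrambled library reached the lowest knockdown or sham library. The log2 difference was 1.07 ± 0.27 for knockdown over scrambled (edgeR, adjusted p = 0.0728) and -0.90 ± 0.29 for scrambled over sham (adjusted p = 0.106). Ddx58 encodes RIG-I, which recognises RNA with a 5′ triphosphate. It stood at 42.3, 48.9 and 44.3 CPM in the knockdown libraries, 18.8, 33.3 and 29.3 CPM in the scrambled libraries and 48.8 and 41.7 CPM in the sham libraries, again with all scrambled libraries below the rest. Its differences were 0.74 ± 0.22 (edgeR, adjusted p = 0.0816) and -0.74 ± 0.24 (adjusted p = 0.106) in the same order. Ifih1, which encodes MDA5, a sensor of long double-stranded RNA, stood at 42.3, 38.5 and 36.3 CPM in the knockdown libraries, 23.04, 30.3 and 33.2 CPM in the scrambled libraries and 33.97 and 36.8 CPM in the sham libraries. Dhx58, which encodes LGP2, a regulator of both, stood at 7.85, 9.88 and 6.04 CPM in the knockdown libraries, 2.35, 5.49 and 4.16 CPM in the scrambled libraries and 4.17 and 7.37 CPM in the sham libraries, with scrambled library 2 between the sham libraries. Zbp1, a sensor of Z-form nucleic acid that can trigger cell death, stood at 13.8, 23.7 and 14.6 CPM in the knockdown libraries, 3.21, 14.1 and 2.90 CPM in the scrambled libraries and 9.36 and 6.70 CPM in the sham libraries. Its scrambled library 2 lay with the knockdown libraries and above both sham libraries, which themselves lay below every knockdown library. The log2 difference of Zbp1 for scrambled over sham was -0.22 ± 0.64, and it was above 0 in 4 of 15 alternatives, at 0.13 without scrambled library 1, 0.11 without scrambled library 3, 0.034 without sham library 1 and 0.82 without both scrambled libraries 1 and 3. It was 1.11 ± 0.63 for knockdown over sham, the highest of the 36 in that comparison (edgeR, adjusted p = 1). Counting strand is not given, and Dhx58 and Eif2ak2 overlap transcripts on the other strand, so reads of these cannot be told apart.

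The transcription factors divided. Irf7, the factor that amplifies type I interferon production, stood at 27.3, 44.9 and 23.9 CPM in the knockdown libraries, 6.54, 21.8 and 9.01 CPM in the scrambled libraries and 22.3 and 19.5 CPM in the sham libraries. The genes whose values by library are given outside the naming rule, Irf7 among them, were chosen after their values had been seen. For Irf7 scrambled library 2 lay between the sham libraries, and knockdown library 2 was highest. Its log2 difference was 1.35 ± 0.43 for knockdown over scrambled (edgeR, adjusted p = 0.0891). Stat2 stood at 65.7, 92.3 and 72.7 CPM in the knockdown libraries, 74.4, 77.2 and 72.7 CPM in the scrambled libraries and 65.3 and 62.7 CPM in the sham libraries, with both sham libraries lowest. Irf9, the DNA-binding partner of STAT2, stood at 46.2, 42.4 and 48.3 CPM in the knockdown libraries, 30.2, 49.5 and 35.4 CPM in the scrambled libraries and 39.98 and 41.8 CPM in the sham libraries, with the groups of knockdown and scrambled libraries overlapping. Irf1 stood at 184, 294 and 191 CPM in the knockdown libraries, 190.2, 223 and 131 CPM in the scrambled libraries and 162 and 253 CPM in the sham libraries, a range that overlapped between all groups. The log2 differences of Stat2, Irf9 and Irf1 for knockdown over scrambled were 0.04 ± 0.16, 0.25 ± 0.20 and 0.30 ± 0.27. Irf9 shares its span with Rnf31 on the same strand and Irf7 with Phrf1 on the other, so part of their reads is uncertain.

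The 3 Ifit genes, whose proteins bind viral RNA or translation factors, lie near each other on chromosome 19 but their values by library differed. Ifit1 (chr19:34640871-34650009, mm10) stood at 11.3, 12.7 and 10.1 CPM in the knockdown libraries, 2.55, 5.16 and 5.73 CPM in the scrambled libraries and 9.11 and 7.98 CPM in the sham libraries. The 3 groups did not overlap, with the knockdown libraries highest and the scrambled libraries lowest. Its log2 difference was 1.37 ± 0.32 for knockdown over scrambled, the smallest adjusted p of the 36 genes (edgeR, adjusted p = 0.0715), -0.96 ± 0.36 for scrambled over sham (adjusted p = 0.129) and 0.42 ± 0.34 for knockdown over sham (adjusted p = 1). Ifit2 (chr19:34550694-34576419) stood at 52.9, 40.9 and 50.3 CPM in the knockdown libraries, 74.1, 45.1 and 110.4 CPM in the scrambled libraries and 44.5 and 56.1 CPM in the sham libraries. Scrambled libraries 1 and 3 were the highest here and scrambled library 2 lay among the others, the reverse of most genes. Its difference was -0.67 ± 0.29 for knockdown over scrambled (edgeR, adjusted p = 0.151), and 0.088 without both scrambled libraries 1 and 3. Ifit3 (chr19:34583531-34588731) stood at 14.8, 11.6 and 16.7 CPM in the knockdown libraries, 6.54, 15.2 and 17.4 CPM in the scrambled libraries and 15.6 and 16.1 CPM in the sham libraries, where scrambled library 1 alone was low. Reads of Ifit3 can be shared with its near copy Ifit3b, which stood between 0.94 and 3.76 CPM.

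The oligoadenylate synthetases, which make the messenger that activates RNase L, and the related Oasl genes included the gene with the widest differences, Oas2. Oas2 stood at 4.31, 10.3 and 4.81 CPM in the knockdown libraries, 0.0392, 2.75 and 1.32 CPM in the scrambled libraries and 7.21 and 3.12 CPM in the sham libraries. Scrambled library 1 had 1 read of it, and every scrambled library was below both other groups. The log2 difference was 2.24 ± 0.76 for knockdown over scrambled (edgeR, adjusted p = 0.0983) and -1.92 ± 0.86 for scrambled over sham (adjusted p = 0.174), the widest of the 36 genes in both comparisons. Oas1a stood at 2.57, 3.46 and 1.79 CPM in the knockdown libraries, 0.313, 2.198 and 0.189 CPM in the scrambled libraries and 2.40 and 1.28 CPM in the sham libraries, with 8 and 3 reads in scrambled libraries 1 and 3, too few for a firm level. Oasl2 stood at 37.6, 49.3 and 39.2 CPM in the knockdown libraries, 3.80, 36.01 and 13.7 CPM in the scrambled libraries and 33.1 and 33.4 CPM in the sham libraries. Scrambled library 2 lay just under the lowest knockdown library, while scrambled library 1 lay far below every other. Oasl1 stood at 1.74, 2.85 and 1.66 CPM in the knockdown libraries, 0.588, 1.10 and 1.07 CPM in the scrambled libraries and 1.45 and 1.73 CPM in the sham libraries. All 4 genes had a difference above 0 for knockdown over scrambled, from 1.19 to 2.24, and below 0 for scrambled over sham, from -1.92 to -0.83. For knockdown over sham they ran from 0.33 to 0.50. Without both scrambled libraries 1 and 3, Oas1a and Oasl2 had differences of 0.28 and 0.12 for scrambled over sham, above 0. Without knockdown library 2 or without sham library 2, Oas2 had a difference of -0.17 for knockdown over sham. Oas2 and Oas1a lie on chromosome 5 in a cluster with near copies, among which reads may be split.

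Isg15, a ubiquitin-like protein that is joined to other proteins, stood at 5.65, 7.59 and 6.47 CPM in the knockdown libraries, 1.96, 4.18 and 3.15 CPM in the scrambled libraries and 4.11 and 4.07 CPM in the sham libraries. All knockdown libraries lay above the other 5, and the scrambled and sham libraries overlapped. Its log2 difference was 1.09 ± 0.33 for knockdown over scrambled (edgeR, adjusted p = 0.0856) and 0.68 ± 0.38 for knockdown over sham (adjusted p = 1). Usp18, the protease that removes ISG15 and also holds back the type I receptor, did not follow it. It stood at 20.1, 20.7 and 20.1 CPM in the knockdown libraries, 13.5, 15.6 and 30.4 CPM in the scrambled libraries and 14.2 and 21.8 CPM in the sham libraries, with scrambled library 3 highest, and its difference was 0.045 ± 0.31 for knockdown over scrambled. Parp9 and Dtx3l encode a pair of partner proteins in ADP-ribosylation and ubiquitination, and their genes lie head to head on chromosome 16 with overlapping ends on opposite strands. Dtx3l stood at 32.1, 34.3 and 31.8 CPM in the knockdown libraries, 16.2, 27.2 and 17.5 CPM in the scrambled libraries and 27.2 and 29.5 CPM in the sham libraries, and Parp9 at 34.2, 36.4 and 35.6 CPM in the knockdown libraries, 18.3, 32.1 and 27.2 CPM in the scrambled libraries and 32.6 and 35.4 CPM in the sham libraries. In both, scrambled library 2 was close to sham and scrambled libraries 1 and 3 were lower. The differences were 0.69 ± 0.22 for Dtx3l (edgeR, adjusted p = 0.0883) and 0.46 ± 0.21 for Parp9 (adjusted p = 0.168). Parp14, next to them, stood between 70.4 and 96.5 CPM in knockdown, 55.9 and 79.3 in scrambled and 63.3 and 65.3 in sham libraries, with a difference of 0.27 ± 0.19.

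Cmpk2 and Rsad2 are neighbours on chromosome 12, at chr12:26469204-26479837 and chr12:26442746-26456452, and make an antiviral nucleotide together. Cmpk2, a mitochondrial nucleotide kinase, stood at 18.9, 21.3 and 23.3 CPM in the knockdown libraries, 5.92, 14.9 and 5.67 CPM in the scrambled libraries and 20.9 and 22.9 CPM in the sham libraries. Every scrambled library was below both other groups, which overlapped each other. Its log2 difference was 1.25 ± 0.35 for knockdown over scrambled (edgeR, adjusted p = 0.0761) and -1.30 ± 0.39 for scrambled over sham (adjusted p = 0.0922), the smallest adjusted p of the 36 genes there. Rsad2, which encodes viperin and acts on the product of CMPK2, showed no such gap. It stood at 4.26, 7.26 and 4.15 CPM in the knockdown libraries, 4.94, 3.25 and 7.05 CPM in the scrambled libraries and 4.17 and 3.35 CPM in the sham libraries, with overlap between all groups and a difference of 0.055 ± 0.37 for knockdown over scrambled. Samhd1, which breaks down nucleotides needed for reverse transcription, had the sign of Ifit2 in these comparisons and not that of most genes. It stood at 136, 171 and 145 CPM in the knockdown libraries, 215, 153 and 211 CPM in the scrambled libraries and 125 and 146 CPM in the sham libraries, with all scrambled libraries above both sham libraries. Its difference was -0.36 ± 0.18 for knockdown over scrambled (edgeR, adjusted p = 0.195) and 0.51 ± 0.21 for scrambled over sham (adjusted p = 0.149). Bst2 stood at 31.2, 50.6 and 30.6 CPM in the knockdown libraries, 22.8, 30.8 and 16.9 CPM in the scrambled libraries and 30.1 and 24.2 CPM in the sham libraries, where knockdown library 2 was highest and scrambled library 2 lay among the others.

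**Figure D4:**
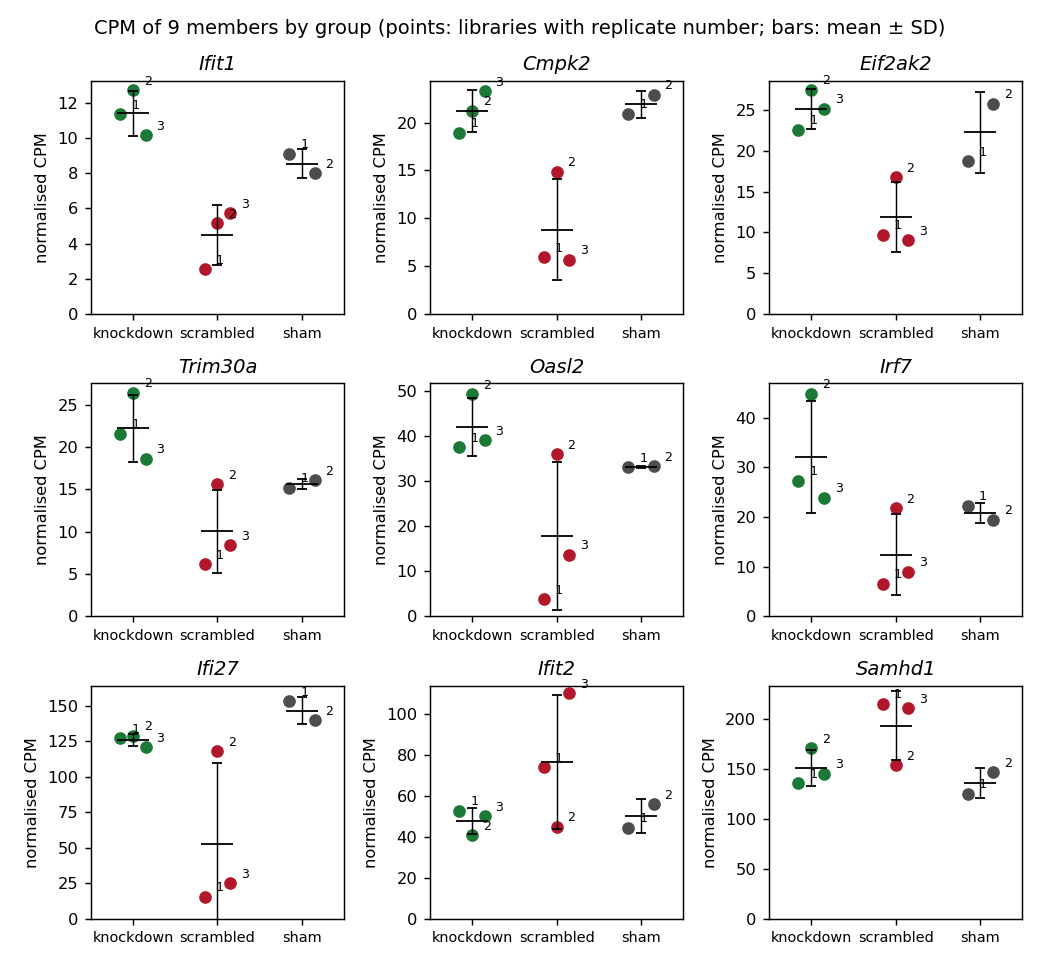
Normalised CPM of 9 interferon-stimulated genes by group, with 1 numbered point for each library and bars for mean ± SD (knockdown n = 3, scrambled n = 3, sham n = 2; the lower bar of Ifi27 in scrambled libraries is cut at 0). Ifit1, Cmpk2 and Eif2ak2 show all scrambled points below the other groups, in Oasl2, Irf7 and Ifi27 scrambled point 2 lies near them, and in Ifit2 and Samhd1 scrambled points 1 and 3 are the highest.

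The guanylate-binding proteins, GTPases that attack membranes around pathogens, lie together on chromosome 3. Gbp3 stood at 23.1, 32.2 and 22.9 CPM in the knockdown libraries, 14.1, 17.2 and 16.9 CPM in the scrambled libraries and 20.1 and 16.1 CPM in the sham libraries. The knockdown libraries lay above all others, and its log2 difference was 0.70 ± 0.21 over scrambled (edgeR, adjusted p = 0.0816) and 0.53 ± 0.24 over sham libraries (adjusted p = 1), the comparison in which it had the smallest unadjusted p of the 36 genes, 0.0512. Gbp2 stood at 85.7, 87.4 and 81.4 CPM in the knockdown libraries, 26.2, 83.8 and 41.2 CPM in the scrambled libraries and 69.8 and 70.1 CPM in the sham libraries, where scrambled library 2 lay with the knockdown libraries. Gbp7 stood at 26.9, 28.6 and 24.2 CPM in the knockdown libraries, 18.4, 20.1 and 30.5 CPM in the scrambled libraries and 21.1 and 27.1 CPM in the sham libraries, with overlap between the groups and its highest value in scrambled library 3. Their differences for knockdown over scrambled were 0.75 ± 0.35 and 0.21 ± 0.23. These genes are near copies of each other, and how their shared reads were counted is not given.

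Trim30a, of a family of ubiquitin ligases, stood at 21.6, 26.5 and 18.6 CPM in the knockdown libraries, 6.19, 15.6 and 8.38 CPM in the scrambled libraries and 15.2 and 16.1 CPM in the sham libraries. The knockdown libraries lay above all others, with a log2 difference of 1.14 ± 0.33 over scrambled libraries (edgeR, adjusted p = 0.0779). Ifi27 stood at 127, 129 and 121 CPM in the knockdown libraries, 15.6, 118 and 24.9 CPM in the scrambled libraries and 153 and 140.2 CPM in the sham libraries. Scrambled libraries 1 and 3 were far below the rest, scrambled library 2 was close to the knockdown libraries, and both sham libraries were highest. Its difference was 1.25 ± 0.61 for knockdown over scrambled (edgeR, adjusted p = 0.186) and -1.47 ± 0.66 for scrambled over sham (adjusted p = 0.178). Without scrambled library 2 these were 2.65 and -2.87, and Ifi27 was called in both (edgeR, adjusted p = 8.72e-07 and 7.9e-07). Over all alternatives they ran from 0.086 to 2.65, with adjusted p up to 0.828, and from -2.87 to -0.31, with adjusted p up to 0.472. Ifi35 stood at 33.5, 40.6 and 37.6 CPM in the knockdown libraries, 10.5, 35.97 and 19.8 CPM in the scrambled libraries and 38.7 and 32.4 CPM in the sham libraries, with scrambled library 2 again among the other groups. Rtp4, which helps receptors reach the cell surface, stood at 10.3, 13.3 and 13.2 CPM in the knockdown libraries, 5.96, 7.82 and 8.94 CPM in the scrambled libraries and 7.84 and 9.82 CPM in the sham libraries, with all scrambled libraries below all knockdown libraries. Xaf1, a partner of the apoptosis inhibitor XIAP, ran from 13.8 to 16.4 CPM in knockdown, 7.99 to 13.1 in scrambled and 13.8 to 14.7 in sham libraries. The Mx genes, relatives of dynamin, stood apart from these. Mx2 stood at 6.47, 9.77 and 7.39 CPM in the knockdown libraries, 8.89, 6.64 and 7.30 CPM in the scrambled libraries and 5.88 and 4.13 CPM in the sham libraries, with every knockdown and scrambled library above both sham libraries. Its differences were 0.66 ± 0.33 for knockdown over sham (edgeR, adjusted p = 1) and 0.61 ± 0.33 for scrambled over sham (adjusted p = 0.230). Mx1 stood at 1.28, 1.06 and 0.831 CPM in the knockdown libraries, 0.274, 0.296 and 3.40 CPM in the scrambled libraries and 1.01 and 1.28 CPM in the sham libraries, where scrambled library 3 was highest and scrambled libraries 1 and 2 were lowest. Ifi44 had 0 reads in scrambled libraries 1 and 3, where a count of 0 allows up to 0.118 and 0.189 CPM by counting error alone. In scrambled library 2 it stood at 0.80 CPM, in the knockdown libraries between 0.51 and 1.40 and in the sham libraries at 0.63 and 0.39 CPM.

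Other genes of the pathway were taken from lists drawn from general knowledge. Of 20 interferon genes, including Ifnb1 and 13 Ifna genes, 0 passed the filter on counts. Ifng had 7 reads and Ifna7 2 reads over all 8 libraries, and the other 18 had 0. Of 6 receptor subunits 5 were tested, and edgeR called 0 in any comparison, where it called 1.10% of all genes higher and 0.476% lower for scrambled over sham. At an unadjusted p under 0.05, 2 of the 5 were higher and 1 lower for scrambled over sham, against 16.7% and 12.5% of all genes. For knockdown over scrambled 1 was lower, against 18.5%, and 0 higher, against 13.9%. For knockdown over sham 0 passed, against 1.67% of all genes higher and 0.696% lower. Ifnar1 stood at 81.3, 79.5 and 81.4 CPM in the knockdown libraries, 74.95, 92.7 and 82.1 CPM in the scrambled libraries and 88.1 and 83.4 CPM in the sham libraries. Its group differences were small, -0.044 ± 0.14 for knockdown over scrambled and -0.042 ± 0.16 for scrambled over sham. Ifnar2, the other subunit of the type I receptor, stood at 78.6, 76.2 and 73.3 CPM in the knockdown libraries. In the scrambled libraries it stood at 98.9, 93.7 and 79.9 CPM, and in the sham libraries at 66.6 and 63.8 CPM. Its difference was -0.26 ± 0.14 for knockdown over scrambled (edgeR, adjusted p = 0.224) and 0.48 ± 0.16 for scrambled over sham (adjusted p = 0.110). Ifngr1, the ligand-binding subunit of the type II receptor, stood at 503, 514 and 457 CPM in the knockdown libraries, 945, 577 and 669 CPM in the scrambled libraries and 379.7 and 411 CPM in the sham libraries, with the scrambled libraries above the other groups. Its difference was 0.89 ± 0.23 for scrambled over sham (edgeR, adjusted p = 0.0775). Ifngr2, the other subunit of that receptor, had the opposite sign. It stood at 45.3, 43.1 and 43.5 CPM in the knockdown libraries, 25.98, 42.2 and 29.4 CPM in the scrambled libraries and 64.4 and 38.1 CPM in the sham libraries, with a difference of 0.43 ± 0.24 for knockdown over scrambled (edgeR, adjusted p = 0.232) and -0.65 ± 0.27 for scrambled over sham (adjusted p = 0.151). The kinases were even, with Jak1 between 318.9 and 366.9, Jak2 between 59.2 and 67.4 and Tyk2 between 40.5 and 49.6 CPM over all 8 libraries.

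Of 17 tested genes of nucleic acid sensing and its adaptors, edgeR called 1 higher for scrambled over sham (5.88%, against 1.10% of all genes) and 0 in the other comparisons. It was Myd88, the adaptor of most Toll-like receptors, at 74.4, 89.9 and 82.1 CPM in the knockdown libraries, 156, 108 and 129 CPM in the scrambled libraries and 62.1 and 64.3 CPM in the sham libraries. The groups did not overlap, and it rose in scrambled over sham libraries by a log2 difference of 1.05 ± 0.20 (edgeR, adjusted p = 0.0419; the range with other settings reached 0.371). Of 8 inhibitors, edgeR called 1 higher for scrambled over sham (12.5%, against 1.10% of all genes) and 0 in the other comparisons. It was Socs3, a feedback inhibitor induced by STAT3, at 1281, 1382 and 1421 CPM in the knockdown libraries, 4301, 2204 and 4320.3 CPM in the scrambled libraries and 827 and 1190.0 CPM in the sham libraries. Its difference was 1.84 ± 0.34 (edgeR, adjusted p = 0.0390; the range with other settings reached 0.39). Socs1, the inhibitor induced by interferon, was not called, and stood at 24.7, 31.3 and 28.1 CPM in the knockdown libraries, 24.5, 33.98 and 19.1 CPM in the scrambled libraries and 26.1 and 27.01 CPM in the sham libraries.

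Of 57 tested further interferon-stimulated genes, 47 had a difference above 0 for knockdown over scrambled (82.5%, against 50.8% of all genes), with a median of 0.58. For scrambled over sham 40 were below 0 (70.2%, against 49.9%), with a median of -0.26. For knockdown over sham 47 were above 0 (82.5%, against 49.8%), with a median of 0.24. By edgeR 1 was called higher for scrambled over sham (1.75%), a share close to the 1.10% of all genes, and 0 were called in the other comparisons. It was Ifitm1, of the membrane proteins that block viral fusion, at 2.67, 3.13 and 2.54 CPM in the knockdown libraries, 7.48, 8.54 and 8.75 CPM in the scrambled libraries and 1.39 and 2.51 CPM in the sham libraries. The scrambled libraries lay above all others, with a difference of 2.06 ± 0.36 (edgeR, adjusted p = 0.0372; the range with other settings reached 0.365). Ifi27l2a, a relative of Ifi27, stood at 41.4, 53.2 and 33.98 CPM in the knockdown libraries, 2.55, 14.2 and 2.90 CPM in the scrambled libraries and 47.6 and 36.1 CPM in the sham libraries. All scrambled libraries lay below the rest, with 2.68 ± 0.57 for knockdown over scrambled (edgeR, adjusted p = 0.0685) and -2.65 ± 0.60 for scrambled over sham (adjusted p = 0.0599). Ifi205 and Ifi204, of a family of DNA-binding proteins, stood in every library of both tumour groups above sham, as Mx2 and Stat2 did. Ifi205 stood at 499, 441 and 391 CPM in the knockdown libraries, 417, 602 and 311 CPM in the scrambled libraries and 179.6 and 164 CPM in the sham libraries. Ifi204 stood at 257, 221 and 216 CPM in the knockdown libraries, 251, 278 and 215 CPM in the scrambled libraries and 151 and 142 CPM in the sham libraries. Their differences for knockdown over sham were 1.37 ± 0.28 and 0.66 ± 0.18, with an adjusted p of 1 by edgeR for both, which fell to as low as 0.000784 and 0.0299 among the alternatives. For scrambled over sham they were 1.37 ± 0.28 and 0.76 ± 0.18, where edgeR gave an adjusted p of 0.0516 and 0.0644. Iigp1 and Tgtp2, GTPases of the family that attacks the vacuoles of intracellular pathogens, had differences of 0.95 ± 0.24 and 2.04 ± 0.67 for knockdown over sham (edgeR, adjusted p = 1 for both).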

How the data were processed

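RNA of sorted fibroadipogenic progenitors was sequenced from 8 libraries. The authors deposited raw counts per gene symbol, 1 column a library. The build was mm10, per the submitters' processing notes, which list STAR, Bowtie, bcl2fastq 2.20, R 4.2.1 and DESeq2 1.36.0 with no role for any. How reads were counted, on which annotation and strand, is not stated in the labels. Besides the overlaps named above, Rtp4, Parp14 and Gbp7 share part of their span with another gene on the same strand. Oas2, Oasl1, Usp18, Irf1, Ifi35, Trim30a and Gbp2 do so on the other strand. Part of the reads of these genes is therefore uncertain too. Genes were filtered with filterByExpr (minimum count 10, total 15), scaled by TMM and fitted with edgeR 4.0.16 (R 4.3.3; robust quasi-likelihood, not the legacy method) with 3 group means over all 8 libraries. P-values were Benjamini-Hochberg adjusted over 13646 genes, with a threshold of 0.05. Standard errors were derived from each log2 difference and its F statistic. The script was tested on simulated data with the estimated spread of these genes. Of 2-fold changes it recovered 28% for knockdown over scrambled, 18% for scrambled over sham and 30% for knockdown over sham. Of 4-fold changes it recovered 82%, 74% and 74% in the same order. A gene not called can thus still differ by 2-fold or by 4-fold. For knockdown over scrambled, Oas2 and Ifi27l2a were not called by edgeR at fitted differences of 4.74-fold and 6.42-fold. Whether the recovered shares hold for the uneven scrambled libraries was not tested. Exon lengths came from GENCODE M21. The heatmap used log2 CPM with 0.5 reads added. The principal components used edgeR's log2 CPM of the 13646 genes, which adds a larger prior count.

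By the naming rule, values by library were given for called members and the 4 with the smallest unadjusted p in each comparison. The rule also took the 8 members with the highest level per length. For the pathway lists it took called genes and up to 4 with the smallest p. Values of other members and pathway genes were added after they had been seen. The 36 genes and all lists were chosen with earlier results of these data known, so no test of a list was made. Alternatives were DESeq2 1.42.0, its size factors, no filter, a fit to the 2 groups compared, a replicate block and each library left out. The legacy method and leaving out scrambled libraries 1 and 3 were added after seeing the data. Limits for a count of 0 allow 3 reads and cover counting error only. Some results of the pathway lists are not reported here.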

Additional observations from a re-analysis of the deposited data

How the results depend on the processing

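Numbers of calls depended on the libraries and the tool, while the members' medians kept their sign under all alternatives run. For knockdown over scrambled, scrambled over sham and knockdown over sham, edgeR called 7, 215 and 1 of all genes. DESeq2 called 2206, 1973 and 26, and among the 36 members 9, 1 and 0. A fit to the 2 groups compared called 0, 4 and 101 genes. Without the filter on low counts 11 genes were called for knockdown over scrambled and 2 for knockdown over sham. The legacy method called 1 gene for knockdown over scrambled and 133 for scrambled over sham. Without both scrambled libraries 1 and 3, 100, 493 and 103 genes were called, and the members' median for knockdown over scrambled was 0.28. With each library left out in turn the calls ran from 0 to 7313, 0 to 6908 and 0 to 32 genes, the highest each time without scrambled library 2, and among the members from 0 to 28 and 0 to 18 in the first 2 comparisons. The cause was not tested. Leaving out a sham library leaves 1, which is assumed to vary like the other groups. With the replicate number as a block 0, 16 and 0 genes and 0 members were called. Deviations of same-numbered knockdown and scrambled libraries from their group means correlated by 0.068, -0.0012 and 0.172. For pairs with different numbers the correlations ran from -0.149 to 0.0683. Deviations within so small a group depend on each other, so these values cannot show whether same-numbered libraries share an origin. The labels give no pairing. Depth limits Oas1a, Oas2, Oasl1, Mx1 and Ifi44, which had few reads.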
